A study of Homo sapiens with 6 samples.

Results

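The cytosolic HSP90 system of HCT116, a cell line from a human colorectal carcinoma, was examined in RNA-seq libraries of parent cells and of cells given one of 2 siRNAs against the long noncoding RNA LINC01534. The system was represented by 10 genes chosen by name. They were the HSP90 genes HSP90AA1 and HSP90AB1, the J-domain genes DNAJB1 and DNAJA1, the small heat shock protein gene HSPB1, BAG3, the HSP90 cochaperone genes STIP1, AHSA1 and FKBP4, and HSF1, which encodes the main heat shock transcription factor. All 10 genes were found among the 26255 gene symbols of the data, and all 10 passed the filter on low values, as did 12203 symbols in all. There were 2 libraries of parent HCT116 cells, 2 of cells with the knockdown labelled siLINC01534-1 and 2 of cells with the knockdown labelled siLINC01534-2. The labels describe no transfection of the parent cells, so the effect of transfection and that of the knockdown cannot be told apart. The labels number the libraries of a group but do not say that they came from separate cultures, so that the p-values measure the spread between these libraries, which may be technical. The methods of the study name triplicate cultures, which 2 libraries per group do not match.

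HSP90 is an abundant chaperone of the cytosol that binds kinases, steroid hormone receptors and other client proteins late in their folding. HSP40 proteins, which carry a J-domain, hand unfolded proteins to HSP70, the adaptor STIP1 (HOP) passes clients from HSP70 to HSP90, AHSA1 stimulates the HSP90 ATPase, and FKBP4 (FKBP52) is an immunophilin that acts in HSP90 complexes with steroid receptors. HSF1 is held inactive by chaperones and, when unfolded proteins occupy them, binds heat shock elements in DNA as a trimer and raises transcription of the same chaperone genes. Tumour cells, colorectal cancer cells among them, often carry high levels of these chaperones.

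The RefSeq promoter table (GRCh38.p14) held windows of 300 bases, 250 before and 50 after a start site, for 8 of the 10 genes, 15 windows in all. FKBP4 and HSF1 had no entry. The windows were placed on GRCh37, the build of the data, by exact match. They are shown because the 10 genes are linked in textbooks by the heat shock element, a series of inverted GAA units. The element was searched on both strands as 3 units, GAANNTTCNNGAA or TTCNNGAANNTTC, and as 2 units, GAANNTTC or TTCNNGAA, the shorter form being part of the longer. The 3-unit form was found in 3 of the 8 genes (37.5%), HSP90AA1, HSP90AB1 and DNAJA1, against 166 of 27305 genes in the whole table (0.608%). The 2-unit form was found in 6 of the 8 (75%), the other 3 being DNAJB1, HSPB1 and STIP1, against 16.2% of all genes. A gene with more windows has more room for a match. By window, the 3-unit form was in 20% of the 15 windows against 0.49% of all windows, and the 2-unit form in 46.7% against 13.5%. The windows of BAG3 and AHSA1 held neither form. A match is a description of letters in these windows and was not tested for binding. The 250 bases before one start site of HSP90AA1 are given whole, as those of the stress-inducible HSP90 gene. They lie at chr14:102553382-102553631 of GRCh37 and are written 5′ to 3′ on the minus strand, with the elements in capitals. The annotation places no exon there, and 2 of the 10 transcripts of the gene span it as an intron.
HSP90AA1: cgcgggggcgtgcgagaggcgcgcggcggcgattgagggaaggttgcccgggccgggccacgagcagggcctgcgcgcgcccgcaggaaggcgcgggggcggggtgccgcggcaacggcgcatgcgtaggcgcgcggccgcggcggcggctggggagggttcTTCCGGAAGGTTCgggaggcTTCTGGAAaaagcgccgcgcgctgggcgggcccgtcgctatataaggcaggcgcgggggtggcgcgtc

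Elements of the other genes are shown with 8 bases on each side, on the strand of the gene and with the element in capitals. Further 2-unit elements in DNAJA1 and in another window of DNAJB1 are left out. HSP90AB1 held 2 elements of 3 units, at chr6:44215515-44215527 and chr6:44215568-44215580, which begin 165 and 112 bases before a start site at 44215680 and lie within an intron of 3 of the 4 annotated transcripts. The 3-unit element of DNAJA1, at chr9:33025274-33025286, begins 3 bases past the start site of the gene. The 2-unit elements in one window of DNAJB1 begin 77 and 47 bases before a start site at 14629209 on chromosome 19. That of HSPB1 begins 182 bases before a start site at 75931990 on chromosome 7. That of STIP1 begins 13 bases past a start site at 63953643 on chromosome 11.
HSP90AB1, first: ggagcaggTTCTGGAAGATTCatgggctc
HSP90AB1, second: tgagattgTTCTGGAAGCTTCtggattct
DNAJA1: gccgggcgGAACTTTCCAGAAcgctcggt
DNAJB1, first: gcggggcgGAAGGTTCtggagggg
DNAJB1, second: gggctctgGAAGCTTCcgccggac
HSPB1: taacgagaGAAGGTTCcagatgag
STIP1: ctagtaggTTCCAGAAggcggcgc

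Values are FPKM, fragments scaled to transcript length and to library size, as deposited for each library. limma was fitted to log2(FPKM + 1) of all 12203 genes whose FPKM averaged 1 or more, and the threshold was a p-value under 0.05 after Benjamini-Hochberg adjustment. Percentages of change compare arithmetic means of FPKM without a pseudocount, and log2 changes are on the log2(FPKM + 1) scale with their standard errors (SE). The depth was estimated at 8680000 to 10400000 reads per library, which puts between 1040 reads (HSF1) and 47800 reads (HSP90AB1) behind the lowest value of a gene here, with a counting error of 3.1% or less of the value. LINC01534 itself had an FPKM of 0.285 and 0.571 in the parent libraries, 0 and 0.283 in the siLINC01534-1 libraries, and 0.660 and 0.551 in those of siLINC01534-2. If the lowest of these values above 0 is 1 read, they stand for 1 and 2 reads, 0 and 1, and 2 and 2. So few reads cannot show whether the targeted RNA was lowered, and every direction given for these groups is drawn by label. Of 6 epithelial marker genes, all 6 reached 1 FPKM in each group, with a summed FPKM of 3523 to 3585 in parent, 3029 to 3035 with siLINC01534-1 and 3429 to 3606 with siLINC01534-2. Of 7 markers of blood, endothelial, stromal and liver cells, COL1A1 alone reached 1 FPKM and CD3E was at 0 throughout, and their summed FPKM was 3.15 to 3.23 in parent, 5.58 to 6.14 with siLINC01534-1 and 3.98 to 4.39 with siLINC01534-2.

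Of the 10 genes, 9 were lower and 0 were higher than in parent when both siRNAs were averaged, while 20.1% of all tested genes were lower and 17.1% were higher. HSF1 was the gene that did not pass the threshold in limma. At an unadjusted p under 0.05 it was the 1 gene of the 10 that was higher for both siRNAs and with siLINC01534-2, against 0 with siLINC01534-1. The share of all tested genes at the unadjusted threshold was not counted, so this count has no background beside it. In whole cultures, fewer cells that express a gene and less of its RNA per cell cannot be told apart. The 4 siLINC01534 libraries all lay below both parent libraries for 9 of the 10 genes, as for 19.3% of tested genes, and above both for HSF1, as for 19% of tested genes. With siLINC01534-1, 9 of the 10 were lower and 0 higher, against 24.5% lower and 21.8% higher among all tested genes. With siLINC01534-2, 7 were lower and 0 higher, against 11.8% lower and 11.1% higher. The median log2 change of the 10 genes was -0.37 for both siRNAs, -0.41 with siLINC01534-1 and -0.28 with siLINC01534-2, while the medians of all tested genes were -0.0068, 0.0003 and 0.0018. The counts rest on treating the siRNAs as separate groups. With the 4 siLINC01534 libraries pooled into 1 group, which adds the gap between the siRNAs to the error, HSPB1 and FKBP4 were the 2 genes that stayed past the threshold, against 0.819% of tested genes lower and 2.14% higher. The adjusted p-values of the others were then between 0.053 for HSP90AA1 and 0.38 for DNAJA1, apart from HSF1. Without the first parent library, 8 of the 10 passed for both siRNAs, and with siLINC01534-2 the count of 7 fell to 4 without either the first parent library or the second siLINC01534-2 library.

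**Figure D1:**
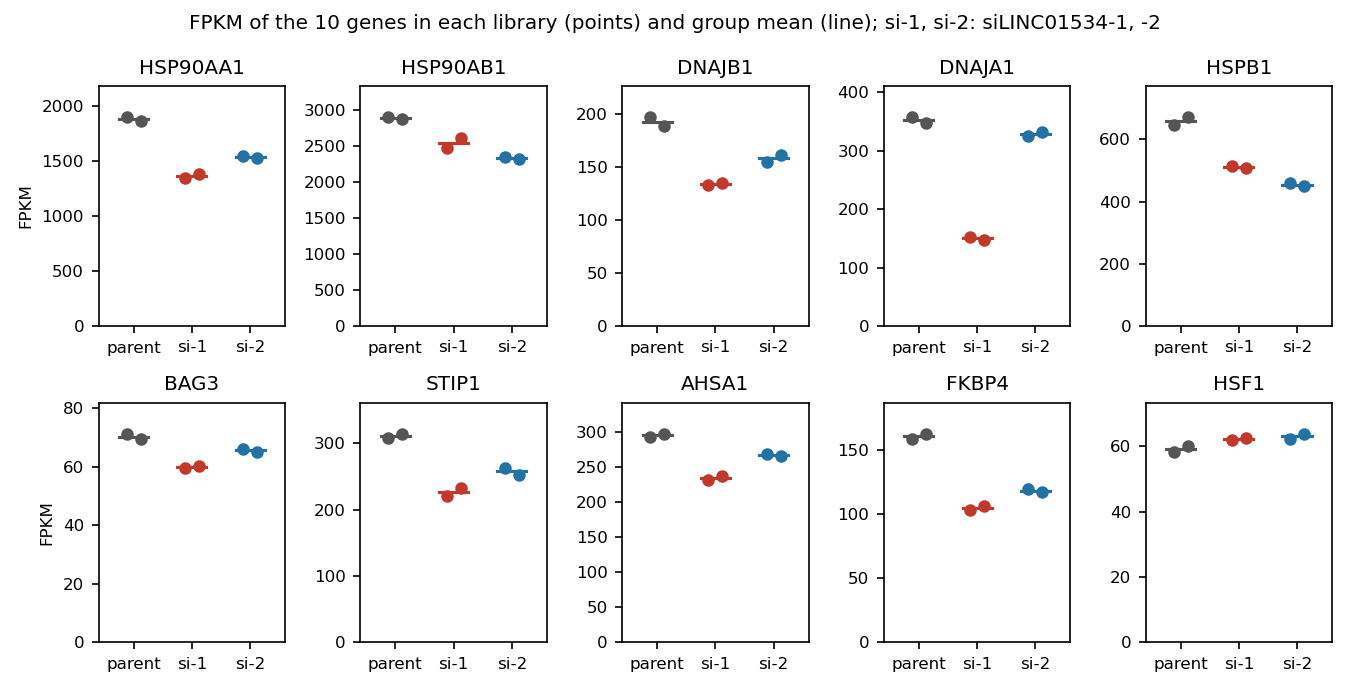
FPKM (y axes, from 0) of each of the 10 genes in the 2 parent, 2 siLINC01534-1 and 2 siLINC01534-2 libraries (points) with the mean of each group (line). In 9 panels all 4 siLINC01534 libraries lie below both parent libraries, and in the panel of HSF1 they lie above both, between 61.8 and 63.7.

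HSP90AA1 encodes HSP90α, the stress-inducible form of cytosolic HSP90 (chr14:102547079-102606036 of GRCh37, minus strand). Its FPKM was 1900.4 and 1869 for parent, 1352 and 1381 for siLINC01534-1, and 1547 and 1526 for siLINC01534-2. All 4 siLINC01534 libraries were below both parent libraries, the siLINC01534-1 libraries being the lowest. The mean was 27.5% lower with siLINC01534-1 and 18.5% lower with siLINC01534-2, and the log2 change for both siRNAs was -0.38 (SE 0.029, adjusted p = 7e-04 from limma). HSP90AB1 encodes HSP90β, the constitutive form (chr6:44213903-44221625, plus strand), and was the most abundant of the 10 genes, ranked 23 among all tested genes by its FPKM in parent, against rank 47 for HSP90AA1. It had an FPKM of 2894 and 2868 in the parent libraries, 2467 and 2609.9 in the siLINC01534-1 libraries, and 2337 and 2309 in those of siLINC01534-2. The order of the siRNAs was the opposite of that for HSP90AA1, with the siLINC01534-2 libraries lowest. The mean was 11.9% lower with siLINC01534-1 and 19.4% lower with siLINC01534-2, with a log2 change of -0.25 for both (SE 0.035, adjusted p = 0.0049). With siLINC01534-1 alone the change of HSP90AB1 was -0.18 (adjusted p = 0.015), and this call was lost without the first parent library (adjusted p = 0.066), the second parent library (0.054), the first siLINC01534-1 library (0.092) or the filter on low values (0.074). With siLINC01534-2 alone the change of -0.31 (adjusted p = 0.0072) was lost without the second siLINC01534-2 library (adjusted p = 0.052).

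The summed FPKM of the cytosolic HSP90 genes was 4794 and 4736 for parent, 3819 and 3991 for siLINC01534-1, and 3883 and 3835 for siLINC01534-2. The sums of the siRNAs thus overlapped each other, and all were below those of parent. The ratio of HSP90AA1 to HSP90AB1 was 0.657 and 0.652 in parent and 0.662 and 0.661 with siLINC01534-2, but 0.548 and 0.529 with siLINC01534-1. Over the 4 siLINC01534 libraries the mean log2 ratio was -0.74, against -0.61 in parent, a difference of -0.13 (exact permutation test, two-sided p = 0.8, where 4 libraries against 2 allow a p of 0.133 at the smallest). It was -0.091 without the first and -0.075 without the second siLINC01534-1 library. HSP90 sequences are repeated in pseudogenes. Of 13 HSP90 pseudogene symbols listed, 2 were in the data, and neither reached the filter of 1 FPKM. The symbols include both HSP90AA2 and HSP90AA2P, so they do not count separate pseudogenes. HSP90AA3P, which is annotated but was not listed, was not in the data either. Named pseudogenes are also annotated for DNAJA1 (6, of which 1 was in the data). FKBP4 (5), DNAJB1 (2), HSPB1 (2) and STIP1 (1) have them too, with 0 in the data. How reads shared with pseudogenes were counted is not stated in the sources used here. Nor is it stated whether strand was used for HSP90AA1, DNAJB1, STIP1, AHSA1, FKBP4 and HSF1, which a gene on the opposite strand overlaps.

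DNAJA1 and DNAJB1 encode cytosolic HSP40 proteins, the partners that stimulate the ATPase of HSP70. DNAJA1 (chr9:33025271-33039905, plus strand) had an FPKM of 357 and 348 in the parent libraries, 152 and 148 in the siLINC01534-1 libraries, and 326 and 332 in those of siLINC01534-2. The siLINC01534-1 libraries stood far below the other 4. The mean was 57.4% lower with siLINC01534-1 (log2 change -1.23, SE 0.033, adjusted p = 3.7e-05), whereas with siLINC01534-2 the log2 change was -0.10 (95% interval -0.18 to -0.017, adjusted p = 0.086) and did not pass the threshold. DNAJB1, the stress-inducible HSP40 (chr19:14625581-14671203, minus strand), had an FPKM of 197 and 189 for parent, 132 and 135 for siLINC01534-1, and 155 and 162 for siLINC01534-2. The 3 groups did not overlap, and parent was the highest. DNAJB1 was 30.7% lower with siLINC01534-1 and 17.9% lower with siLINC01534-2 (log2 change for both -0.40, SE 0.033, adjusted p = 9e-04). Without the first parent library its call with siLINC01534-2 was lost (adjusted p = 0.050).

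HSPB1 encodes HSP27, a small heat shock protein that holds unfolded proteins without using ATP (chr7:75931990-75933612, plus strand). Its FPKM was 646 and 671 in the parent libraries, 515 and 509 in the siLINC01534-1 libraries, and 459 and 449 in those of siLINC01534-2. The groups did not overlap, and here the siLINC01534-2 libraries were the lowest. HSPB1 was 22.3% lower with siLINC01534-1 and 31.1% lower with siLINC01534-2 (log2 change for both -0.45, SE 0.030, adjusted p = 5.1e-04). BAG3 encodes a nucleotide exchange factor of HSP70 that directs clients to autophagy (chr10:121410892-121437331, plus strand). It had an FPKM of 71.2 and 69.3 for parent, 59.5 and 60.2 for siLINC01534-1, and 66.1 and 65.1 for siLINC01534-2. BAG3 changed least among the 9 genes that were lower when both siRNAs were averaged, while with siLINC01534-1 HSP90AB1 changed less. It was 14.8% lower with siLINC01534-1 (adjusted p = 0.0039), while the log2 change with siLINC01534-2 was -0.097 (95% interval -0.18 to -0.013, adjusted p = 0.096) and did not pass. For both siRNAs the log2 change was -0.16 (SE 0.029, adjusted p = 0.010), and without the first parent library the adjusted p-value was 0.066.

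The HSP90 cochaperone genes were lower with each siRNA. FKBP4 (chr12:2904136-2914589, plus strand) had an FPKM of 159 and 163 in the parent libraries, 103.5 and 106 in the siLINC01534-1 libraries, and 119.5 and 117 in those of siLINC01534-2. It was 34.8% lower with siLINC01534-1 and 26.4% lower with siLINC01534-2, and its log2 change for both, -0.53 (SE 0.029, adjusted p = 3.3e-04), was exceeded in size among the 10 genes by that of DNAJA1 alone, at -0.66. STIP1 (chr11:63952744-63972015, plus strand) had an FPKM of 308 and 314 for parent, 220.1 and 233 for siLINC01534-1, and 263 and 252 for siLINC01534-2. AHSA1 (chr14:77924213-77935815, plus strand) had an FPKM of 293 and 298 in the parent libraries, 232 and 238 in the siLINC01534-1 libraries, and 269 and 266 in those of siLINC01534-2. For all 3 genes parent was highest and siLINC01534-1 lowest, with no overlap between the groups, an order that was not counted over all tested genes. STIP1 was 27.3% lower with siLINC01534-1 and 17.3% lower with siLINC01534-2 (log2 change for both -0.37, SE 0.036, adjusted p = 0.0015). AHSA1 was 20.6% lower with siLINC01534-1 and 9.47% lower with siLINC01534-2 (log2 change for both -0.24, SE 0.027, adjusted p = 0.0023). With siLINC01534-2 alone the change of AHSA1 was -0.14 (adjusted p = 0.028), a call that was lost with any library left out (adjusted p = 0.051 to 0.11) and with the replicate number as a block (0.064). That of STIP1 with siLINC01534-2 was -0.27 (adjusted p = 0.011) and was lost without the first parent library (0.055), the second parent library (0.061) or the second siLINC01534-2 library (0.061).

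HSF1, the transcription factor that acts on the heat shock elements, was the single gene of the 10 with higher values in the siLINC01534 libraries. Its FPKM was 58.2 and 60.0 for parent, 61.8 and 62.6 for siLINC01534-1, and 62.2 and 63.7 for siLINC01534-2. The 4 siLINC01534 libraries were thus above both parent libraries, by 5.3% and 6.6% in the means. The log2 change for both siRNAs was 0.082 (SE 0.031, 95% interval 0.0048 to 0.16, adjusted p = 0.090) and did not pass the threshold, although with upper quartile scaling it did, at 0.11 (adjusted p = 0.037) for both siRNAs and 0.13 (adjusted p = 0.034) with siLINC01534-1. These are levels of HSF1 RNA, and the activity of HSF1 is set largely on the protein, which was not measured in these libraries. HSF1 had the lowest FPKM of the 10 genes, at rank 1672 of the tested genes in parent.

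**Figure D2:**
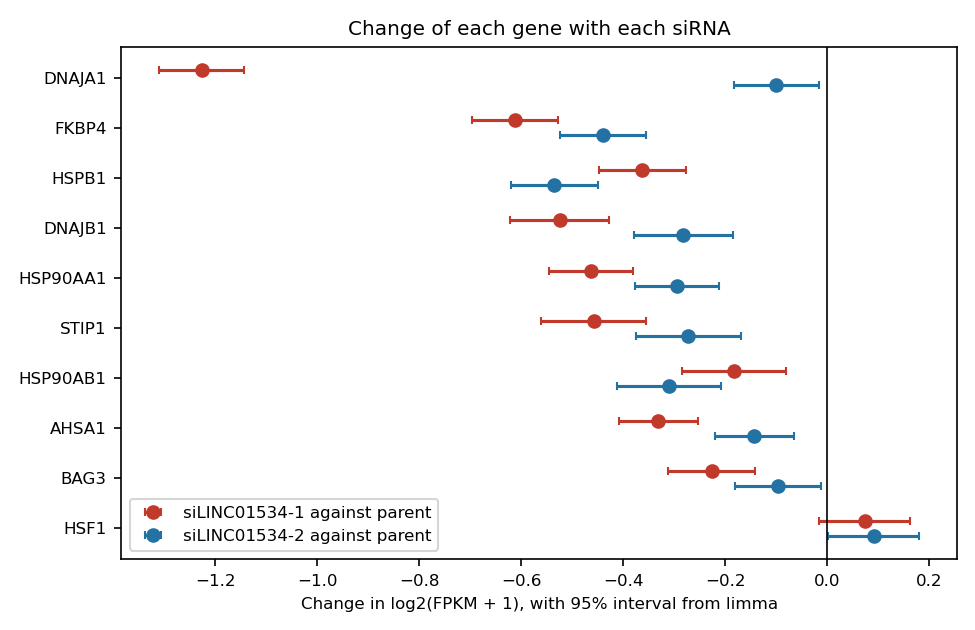
Change in log2(FPKM + 1) against parent (x axis) of each of the 10 genes (y axis, ordered by the mean change of both siRNAs) with siLINC01534-1 (red) and siLINC01534-2 (blue), with 95% intervals from limma. DNAJA1 has the largest gap between the siRNAs, -1.23 against -0.10, and HSF1 is the gene whose points lie above 0.

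The siRNAs differed from each other in 8 of the 10 genes. Of these, 7 were lower with siLINC01534-1 than with siLINC01534-2, as were 22.3% of all tested genes, and 1, HSPB1, was higher with siLINC01534-1 than with siLINC01534-2, as were 19.5%. The largest difference was that of DNAJA1, with a log2 difference of -1.13 (SE 0.033, adjusted p = 5.9e-05). The other 6 genes that were lower with siLINC01534-1 differed by less, from -0.13 for BAG3 (adjusted p = 0.029) to -0.24 for DNAJB1 (adjusted p = 0.0058). The difference of BAG3 did not pass with the replicate block (0.059), upper quartile scaling (0.091) or no variance trend (0.068), nor without any one of the 4 siLINC01534 libraries (0.075 to 0.11). HSPB1 differed by 0.17 (adjusted p = 0.012). For HSP90AB1 the log2 difference was 0.13 (95% interval 0.026 to 0.23, adjusted p = 0.053) and did not pass the threshold, which it did with a pseudocount of 0.1 (adjusted p = 0.042), a filter of 5 FPKM (0.036), median centring (0.044) or upper quartile scaling (0.021). For HSF1 it was -0.017 (95% interval -0.11 to 0.072, adjusted p = 0.73), with a sign that turned under median centring and upper quartile scaling. The median log2 difference of the 10 genes was -0.17, and that of all tested genes 0.0002. The differences other than that of DNAJA1 were small for 2 libraries per group, and 3 of the 8 calls remained without the first siLINC01534-1 library and 4 without the first siLINC01534-2 library. AHSA1, DNAJA1 and DNAJB1 kept their calls with any library left out.

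**Figure D3:**
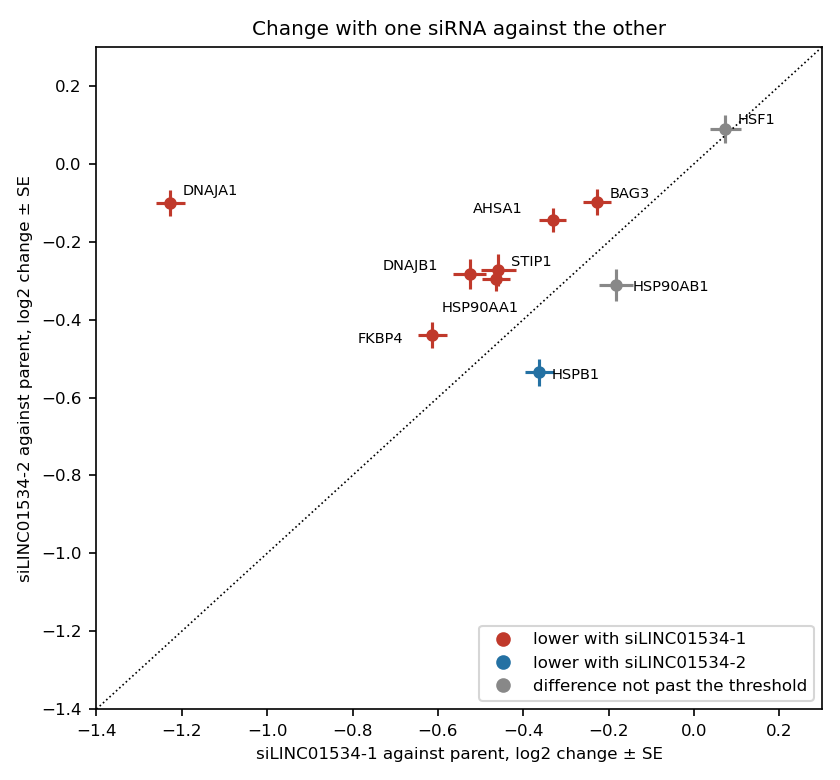
Log2 change against parent with siLINC01534-1 (x axis) and with siLINC01534-2 (y axis) for the 10 genes, with SE as bars and a dotted line of equal change. The 7 genes in red, above the line, were lower with siLINC01534-1, HSPB1 in blue was lower with siLINC01534-2, and HSP90AB1 and HSF1 in grey did not differ past the threshold.

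An siRNA can also pair through its seed, bases 2 to 8 of the guide strand, with the 3′ UTR of other RNAs, as a microRNA does. The letters that pair with the seeds, taken from the antisense strands given in the methods of the study, were searched in the 3′ UTR of the GENCODE canonical transcript on GRCh37. The match of siLINC01534-1, GAATAAA, contains the poly(A) signal AATAAA and was found in 2792 of the 10554 tested genes with an annotated 3′ UTR (26.5%). It was found in 1 of the 10 genes, DNAJA1, at chr9:33039041-33039047, base 140 of a 3′ UTR of 1004 bases and 865 bases before its end. The match of siLINC01534-2, TTCGAGT, was found in 198 genes (1.88%) and in 0 of the 10. Before the 3′ UTR, HSP90AA1 held 1 match of siLINC01534-1, and DNAJB1 and HSPB1 each held 1 of siLINC01534-2. Matches before the 3′ UTR were not counted over all tested genes. The site in DNAJA1 is shown with the match in capitals, because DNAJA1 was also the gene with the largest difference between the siRNAs.
DNAJA1, 3′ UTR: agttaaatgaaGAATAAAcgcaaatataa
The median log2 difference between siLINC01534-1 and siLINC01534-2 was -0.14 for the tested genes with the match of siLINC01534-1 and 0.033 for those without it. The 9 genes here without the match in the 3′ UTR had a median of -0.17. The part of the match in the change of DNAJA1 was not tested.

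The HSP90 genes of other compartments moved apart from each other. HSP90B1 encodes GRP94, the HSP90 of the endoplasmic reticulum, and had an FPKM of 471 and 456 in the parent libraries, 805 and 807 in the siLINC01534-1 libraries, and 789 and 800.2 in those of siLINC01534-2. All 4 siLINC01534 libraries were far above both parent libraries, and those of the siRNAs lay close to each other (adjusted p = 0.63 for their difference). Its log2 change for both siRNAs was 0.79 (SE 0.028, adjusted p = 1.1e-04). TRAP1, the mitochondrial HSP90, had an FPKM of 180.3 and 185 for parent, 157 and 159 for siLINC01534-1, and 137 and 132 for siLINC01534-2, with a log2 change of -0.32 (SE 0.030, adjusted p = 0.0012). The direction of TRAP1 was thus that of the cytosolic HSP90 genes, and that of HSP90B1 was the opposite. The ratio of HSP90B1 to the sum of HSP90AA1 and HSP90AB1 was 0.0982 and 0.0963 in the parent libraries, 0.211 and 0.202 in the siLINC01534-1 libraries, and 0.203 and 0.209 in those of siLINC01534-2. The log2 ratio was higher by 1.08 in the 4 siLINC01534 libraries, which did not overlap with parent (exact permutation test, two-sided p = 0.133, the smallest that 4 libraries against 2 allow).

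**Figure D4:**
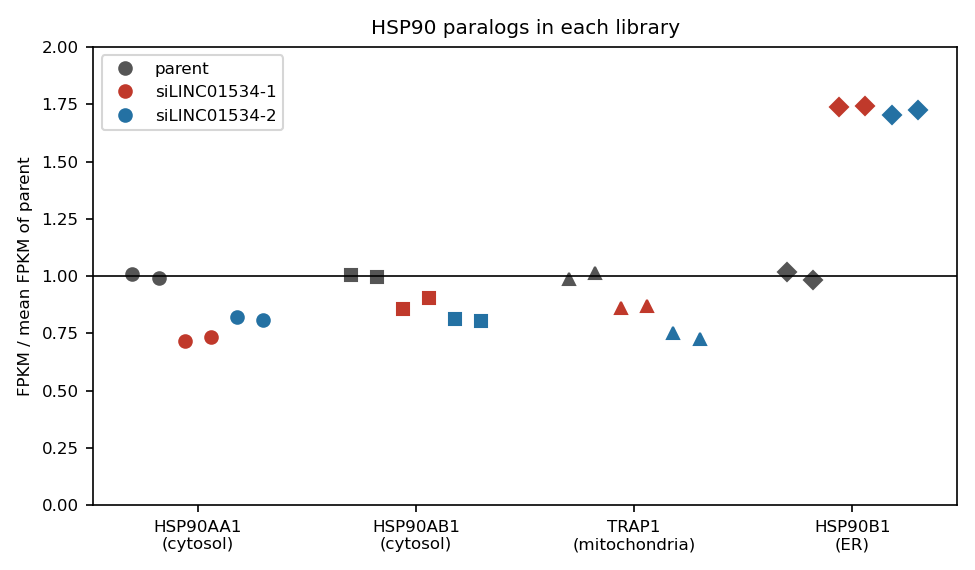
FPKM of the 4 HSP90 genes in each library divided by the mean FPKM of the parent libraries (y axis, from 0), by gene and compartment (x axis), with parent in grey, siLINC01534-1 in red and siLINC01534-2 in blue. The siLINC01534 libraries lie below 1 for HSP90AA1, HSP90AB1 and TRAP1 and above 1 for HSP90B1 of the endoplasmic reticulum (ER).

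Other chaperone genes were counted in lists, averaged over both siRNAs. Among all tested genes, 20.1% were lower and 17.1% were higher in that comparison. Of the genes named from these lists, CDC37 aside, and the HSP90 genes of other compartments, HSP90B1, HSPA1B and HSPE1 kept their calls with the siLINC01534 libraries pooled into 1 group, and the others given here then had adjusted p-values of 0.088 (CDC37L1) to 0.37 (BAG5). Of 18 other HSP90 cochaperone genes, all tested, 10 were lower, 1 was higher and 7 did not pass for both siRNAs, with a median log2 change of -0.22. The lower ones included the ubiquitin ligase STUB1 (CHIP) at -0.43 (adjusted p = 0.0051), the phosphatase PPP5C at -0.42 (adjusted p = 8e-04) and the cyclophilin PPID at -0.39 (adjusted p = 9.9e-04). The gene that was higher was CDC37L1, at 0.48 (adjusted p = 0.0055). CDC37, which brings kinases to HSP90, had a log2 change of -0.028 with siLINC01534-1 (adjusted p = 0.77) and of -0.53 with siLINC01534-2 (adjusted p = 0.0073). The siRNAs differed in CDC37 by 0.50 (adjusted p = 0.0038), and CDC37 is named after its values were seen.

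Of 17 genes for cytosolic HSP70, HSP110 and other J-domain proteins, 16 were tested, and 9 were lower, 2 were higher and 5 did not pass, with a median of -0.21. HSPA8, the constitutive HSP70 (HSC70), had an FPKM of 1858 and 1881 for parent, 1290.4 and 1295 for siLINC01534-1, and 1616 and 1597 for siLINC01534-2. It was lower in all 4 siLINC01534 libraries, with a log2 change of -0.38 (SE 0.027, adjusted p = 6.5e-04) and in the order of groups seen for HSP90AA1. HSPA1A and HSPA1B, the stress-inducible HSP70 genes, are near-identical copies that can share reads, so that the division between them is uncertain. HSPA1B had an FPKM of 79.0 and 74.2 in the parent libraries, 44.3 and 46.4 in the siLINC01534-1 libraries, and 51.6 and 53.7 in those of siLINC01534-2 (log2 change -0.64, adjusted p = 5.2e-04), and HSPA1A lay between 1.39 and 2.27 FPKM in all libraries, with a log2 change of -0.37 (adjusted p = 0.023) that was lost without the first or the second parent library (adjusted p = 0.097 and 0.071). Also lower were HSPH1 (HSP110) at -0.50 (adjusted p = 7.5e-04) and DNAJA4 at -0.46 (adjusted p = 0.0013), while the J-domain genes DNAJB2 at 0.38 (adjusted p = 0.0077) and DNAJB5 at 0.46 (adjusted p = 0.037) were higher. The call of DNAJB2 was lost without the first parent library (adjusted p = 0.060), and that of DNAJB5 without the first (0.16) or second (0.13) parent library, the second siLINC01534-1 library (0.083) or the second siLINC01534-2 library (0.067).

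**Figure D5:**
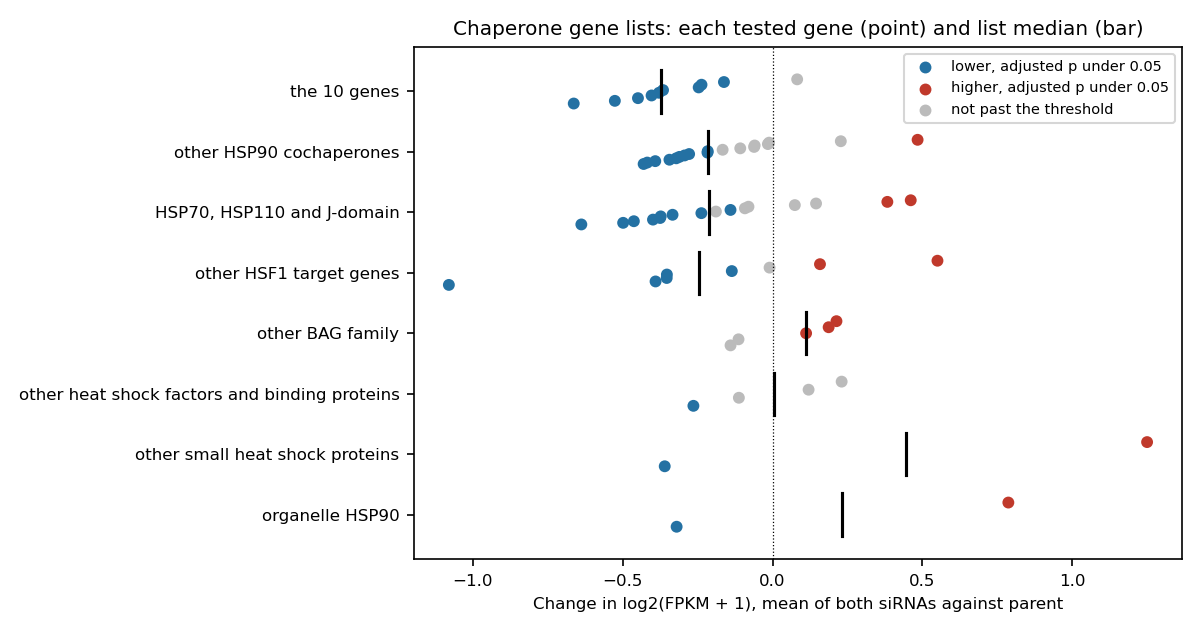
Change in log2(FPKM + 1) against parent, averaged over both siRNAs (x axis), of each tested gene (points, by their call) in 8 gene lists (y axis), with the list median as a bar. The medians of the 10 genes, the other cochaperones, the HSP70 list and the other HSF1 targets lie below 0, at -0.37, -0.22, -0.21 and -0.24, and that of the other BAG genes lies at 0.11.

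Of 9 other genes known as HSF1 targets, 8 were tested, and 5 were lower, 2 were higher and 1 did not pass, with a median of -0.24. HSPD1, the mitochondrial chaperonin HSP60, had an FPKM of 1095 and 1062 for parent, 299 and 298 for siLINC01534-1, and 879 and 862 for siLINC01534-2. Its log2 change was -1.85 with siLINC01534-1 and -0.31 with siLINC01534-2 (adjusted p = 1.2e-05 and 0.0039), and the siRNAs differed by -1.54 (adjusted p = 2.3e-05). Its 3′ UTR also held 1 match of the siLINC01534-1 seed, the part of which was not tested. Among the other genes named from the lists, PPID and DNAJA4 held 1 match and HSPH1 held 2, each with a lower value with siLINC01534-1 than with siLINC01534-2 (log2 differences -0.32, -0.56 and -0.36). CDC37L1, which was higher than in parent, also held 2, with a log2 change of 0.60 with siLINC01534-1 and 0.37 with siLINC01534-2. Named genes without this match in the 3′ UTR also differed between the siRNAs, in both directions. Their log2 difference was -0.52 for MRPL18, -0.34 for STUB1 and -0.31 for HSPA8, but 0.29 for PPP5C and 1.18 for HSPB8. HSPE1, the cochaperonin transcribed from the same promoter region as HSPD1, changed by -0.35 with siLINC01534-1 and -0.36 with siLINC01534-2 (adjusted p = 0.0048 and 0.011) and held no match. The cause of the difference between HSPD1 and HSPE1 was not tested. Also lower was the mitochondrial ribosomal protein gene MRPL18 at -0.39 (adjusted p = 0.0042), and DEDD2 was higher at 0.16 (adjusted p = 0.018), the call of DEDD2 being lost without the first (0.095) or second (0.077) parent library or the first siLINC01534-1 library (0.051).

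The families of BAG3 and HSPB1 did not share one direction. The lists are small, and among all tested genes 20.1% were lower and 17.1% were higher for both siRNAs. Of 5 other BAG genes, 3 were higher, 0 were lower in limma (1 at an unadjusted p under 0.05) and 2 did not pass, with a median of 0.11, and the named example BAG5 had a log2 change of 0.19 (adjusted p = 0.033) that was lost without the first (0.059) or second (0.18) parent library, the second siLINC01534-1 library (0.081), either siLINC01534-2 library (0.075 and 0.078), the filter on low values (0.055) or with the replicate block (0.062). Of 8 other genes listed by name as small heat shock protein genes, 2 were tested. HSPB8, which works with BAG3 in autophagy of unfolded proteins, had an FPKM of 2.26 and 2.32 in the parent libraries, 10.9 and 10.6 in the siLINC01534-1 libraries, and 4.47 and 3.94 in those of siLINC01534-2. It was thus higher in each siLINC01534 library (log2 change 1.25, SE 0.066, adjusted p = 3e-04), opposite to BAG3 and HSPB1. HSPB11 was listed by its symbol alone, which does not show that it belongs to the family of HSPB1. It changed by -0.36 (adjusted p = 0.023), a call lost without the first (0.073) or second (0.14) parent library, the first siLINC01534-1 library (0.051) or the first siLINC01534-2 library (0.052). Of 6 other genes for heat shock factors and their binding proteins, 4 were tested, and 1 was lower, 0 were higher in limma (1 at an unadjusted p under 0.05) and 3 did not pass, with a median of 0.0038. The lower gene was listed as a binding protein. The share of all tested genes at the unadjusted threshold was not counted. The heat shock factor genes HSF2 and HSF4 changed by 0.12 (adjusted p = 0.12) and 0.23 (adjusted p = 0.099) and did not pass. As for HSF1, their 4 siLINC01534 libraries lay above both parent libraries, as for 19% of tested genes. HSF4 was low, at 2.27 to 3.03 FPKM.

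The tested genes outside the 10 whose profile over the 6 libraries was closest to that of HSP90AA1, by Euclidean distance of log2(FPKM + 1) profiles set to 0 at the parent mean, were PWP2, RCC2, LARS2, RBBP4 and MYH10, at distances of 0.055 to 0.065. Their Pearson correlations with HSP90AA1 were between 0.991 and 0.996 over 6 libraries that share their 3 groups. Among the 10 genes themselves, STIP1 was at a distance of 0.065 and rank 4 of all tested genes, and DNAJB1 at 0.11 and rank 23. HSP90AB1 was at 0.40 and rank 1202, DNAJA1 at 1.12 and HSF1 at 0.94.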

How the data were processed

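Poly(A) RNA of HCT116 cells in 6 libraries (2 parent, 2 siLINC01534-1, 2 siLINC01534-2, grouped by their labels) was sequenced by the authors as 75-base single-end reads from a stranded kit. Per the submitters' processing notes and the methods, reads were mapped to hg19 with TopHat2 2.0.13 and Bowtie2 2.2.3, with SAMtools 0.1.19, and the authors deposited the FPKM per gene symbol that Cuffnorm of Cufflinks 2.2.1 gave. Cuffnorm scales all libraries together, and the annotation is not given in the sources used here. The methods give triplicate cultures, while 2 libraries per group were analysed here, and the RNA kit differs between labels and methods.

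The values were taken as log2(FPKM + 1) for those 12203 of 26255 symbols whose FPKM averaged 1 or more. The pseudocount understates the change of low genes. limma 3.58.1 in R 4.3.3 (lmFit, contrasts.fit, eBayes with a trend) was fitted with 1 mean per group over all 6 libraries and no replicate block, two-sided, with Benjamini-Hochberg adjustment over all tested genes at 0.05, and was checked on simulated data. Ratios within a library were compared by exact permutation. Reads per library were estimated from genes of low FPKM with a single annotated transcript, with 200 bases taken off its length. Each value gave the depth at which it would be 1 read, and the median around the most frequent depth was taken. The estimate rests on that assumption of 1 read. Intervals and counting errors cover the spread of these libraries and of counting only. Gene positions and 3′ UTRs came from GENCODE v44 on GRCh37 and promoter windows from RefSeq (GRCh38.p14).

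The 10 genes, the other lists and the tests were chosen with earlier results of these data known. Named beside the 10 are LINC01534, HSP90B1, TRAP1, HSPA1A, HSPA1B, HSPA8, the HSP90 pseudogenes, up to 3 genes per list and direction with the largest change among those past the threshold whose 4 siLINC01534 libraries lie on one side of both parent libraries, and the 5 genes closest in profile to HSP90AA1. A gene that this rule also names is not reported here. The sequence searches were added after the values were seen. Alternatives were another pseudocount (0.1), no filter, a filter of 5 FPKM, median centring, upper quartile scaling, a replicate block, no variance trend, the siLINC01534 libraries as 1 group, and each library left out. Python 3.11.15, pandas 2.3.3, numpy 2.4.6, scipy 1.17.1 and matplotlib 3.10.9 were used.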

Additional observations from a re-analysis of the deposited data

Results flagged for a closer look

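The changes with the 2 siRNAs differed from each other, by the limma contrast of siLINC01534-1 against siLINC01534-2, in 8 of the 10 genes. Of all tested genes, 22.3% were lower and 19.5% were higher with siLINC01534-1 than with siLINC01534-2. The log2 difference was -1.13 for DNAJA1 (adjusted p = 5.9e-05). It was -0.24 for DNAJB1 (adjusted p = 0.0058), -0.19 for AHSA1 (0.0064), -0.17 for HSP90AA1 (0.011), -0.17 for FKBP4 (0.011), -0.19 for STIP1 (0.018) and -0.13 for BAG3 (0.029), the last not passing with the replicate block (0.059), upper quartile scaling (0.091) or no variance trend (0.068). In these 7 genes both siLINC01534-1 libraries were below both siLINC01534-2 libraries, a pattern that was not counted over all tested genes. HSPB1 had the opposite sign, 0.17 (0.012), with both siLINC01534-2 libraries the lower. With 2 libraries per group, no single library could be tested as standing apart from its group.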

How the results depend on the processing

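Over the alternatives, 480 of 530 values for the 10 genes kept their direction and their side of the threshold, 41 lost the call, 6 gained it and 3 turned sign. Some settings could not turn a direction, because they leave the log2 change as it is. These were the replicate block, no variance trend, the pooled group and a left-out library outside the comparison. The count of values kept is therefore no measure of robustness. With the siLINC01534 libraries pooled into 1 group, the 10 genes had 2 calls in place of 9 and all tested genes 361 in place of 4541. The replicate numbers only share a label (correlations of deviations 0.11, 0.027 and -0.046), and with the replicate block 9, 9, 6 and 7 of the 10 genes passed for both siRNAs, siLINC01534-1, siLINC01534-2 and siRNA against siRNA; the block moved no count of the 10 genes by more than 1.5 times. With each library left out in turn, these counts ranged from 8 to 9, 8 to 9, 4 to 6 and 3 to 8, and the counts over all genes fell to 2360 of 4541 for both siRNAs, 948 of 2788 with siLINC01534-2 and 3290 of 5096 between siRNAs. The median change of the 10 genes was -0.34 with upper quartile scaling for both siRNAs, and -0.40 with median centring and -0.36 with upper quartile scaling for siLINC01534-1. With libraries left out it ranged from -0.39 to -0.36, from -0.42 to -0.39 and from -0.28 to -0.26 for both, siLINC01534-1 and siLINC01534-2. The difference from parent in the log2 ratio of HSP90AA1 to HSP90AB1 then ranged from -0.18 to -0.075. In the log2 ratio of HSP90B1 to their sum, the difference ranged from 1.07 to 1.10. Signs turned for differences between siRNAs near 0. That of HSF1 became 0.0003 with median centring, 0.026 with upper quartile scaling and 0.0009 without the second siLINC01534-2 library (-0.035 without the first). That of HSPE1 became -0.010 without the second siLINC01534-1 library and -0.039 without the second siLINC01534-2 library (0.063 without the first), that of DEDD2 0.0093 with upper quartile scaling, and that of HSPA1A -0.025 without the first siLINC01534-2 library (0.042 without the second). The scalings moved the median of all genes by at most 0.047. The cause of these moves was not tested. Differences near 0.1 on the log2 scale are at the limit of 2 libraries per group, and the counting error of a library, up to 3.1% for HSF1 and 2.83% for BAG3, is of the order of the change of HSF1.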
